A study of Homo sapiens with 21 samples.

Results

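The genes described here are 7 enzymes of the kynurenine pathway, IDO1, TDO2, AFMID, KMO, KYNU, HAAO and QPRT, measured on Illumina expression arrays in 3 human cell lines. They were chosen by name as members of 1 pathway after the measured levels of the 3 control lines had been compared and the large difference of KYNU was known, so levels across the lines are given as descriptions with no test. The probe annotation assigned 11 probes to them, 2 each to IDO1, TDO2, AFMID and KYNU and 1 each to KMO, HAAO and QPRT, out of 30113 probes with exactly 1 gene and 20046 genes. All 7 genes had a probe.

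The series holds 21 arrays in 7 groups of 3, with total RNA from 1 culture sample on each array. HCT116, a colorectal carcinoma line, and MCF10A, a non-tumorigenic breast epithelial line, are each present as control samples labelled CTRL, with no hairpin named. KLE, an endometrial carcinoma line, is present with a control short hairpin RNA (shCTRL), with hairpins 059 and 062 against the mismatch repair gene MSH3, and with hairpins 543 and 603 against the mismatch repair gene MSH6. No dose, time or selection is given, all 5 KLE groups carry a hairpin, and the line, the hairpin and any separate handling of the lines cannot be told apart between KLE and the other lines. The labels do not say that the 3 samples of a group came from separate cultures, so the spread between them, and every p-value, may be technical.

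The kynurenine pathway is the main route by which cells break down the amino acid tryptophan. IDO1 and TDO2 open the indole ring, AFMID releases kynurenine, KMO hydroxylates it, KYNU cleaves kynurenine and hydroxykynurenine to anthranilic acids, HAAO forms the precursor of quinolinic acid, and QPRT turns quinolinic acid into a precursor of NAD. IDO1 is known for its induction by interferon-gamma and TDO2 for its expression in liver, and kynurenine is a ligand of the aryl hydrocarbon receptor.

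Levels below are log2 of the deposited intensity plus 16 after quantile normalization, so that every array has the same median of 6.92 over all its probes. A probe near that median carries little signal above the bulk of dim probes, and levels are compared between samples for 1 probe, never between probes. The deposited intensities had array medians from 87.7 to 122.2, and the number of arrays limits the precision.

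The lines carried markers of their labelled origin in part. In KLE the Mullerian epithelium genes SOX17 (9.50 in shCTRL) and EMX2 (8.93 and 11.47 on its 2 probes) lay far above the median, against 6.72 to 6.98 in HCT116 and MCF10A. In MCF10A the basal keratin KRT5 reached 11.39. In HCT116 the intestinal factor CDX2 reached 8.70, but CDX1, VIL1, CDH17 and LGALS4 were near the array median there. Of the hairpin targets, MSH6 was lower by 2.12 on the log2 scale with hairpin 543 and by 0.93 with hairpin 603 (limma adjusted p = 7.94e-05 and 0.0183). For MSH3, probe ILMN_1719471 fell with hairpin 059 (difference -0.79, limma adjusted p = 0.0266) and gave -0.65 with hairpin 062 (adjusted p = 0.0706), whereas probe ILMN_2077130 gave -0.04 and -0.19 (adjusted p = 1 and 0.887).

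**Figure D1:**
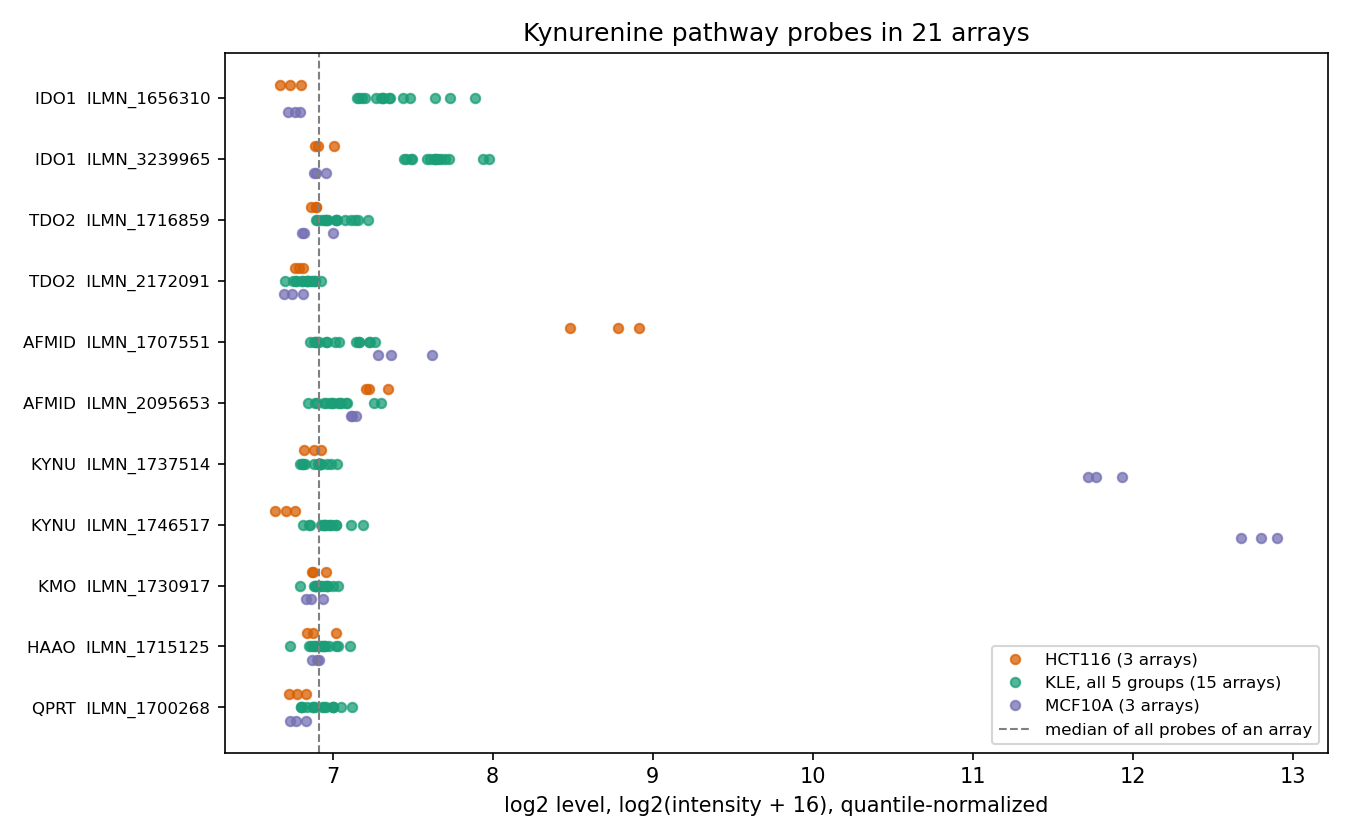
Log2 level (x axis) of each of the 11 kynurenine pathway probes (rows) in each of 21 arrays, coloured by cell line; the dashed line is the common array median of 6.92. KYNU stands far to the right in MCF10A, and AFMID probe ILMN_1707551 less far in HCT116. Both IDO1 probes in KLE lie modestly to the right, from 7.16 to 7.98. AFMID probe ILMN_2095653 in HCT116 lies somewhat above the median (7.21 to 7.35), and the other probes cluster around the median in every line.

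Across the 3 lines, each of 3 genes of the pathway was high in a different line. KYNU was high in MCF10A alone, AFMID was highest in HCT116, and IDO1 was highest in KLE, at a low level. The other enzymes, TDO2, KMO, HAAO and QPRT, stayed close to the array median in every group. Because the lines were compared when the genes were chosen, no test is given for these differences; over all probes tested with limma at an adjusted p under 0.05, 51.7% differed between HCT116 and KLE shCTRL, 50% between MCF10A and KLE shCTRL and 39.3% between HCT116 and MCF10A, so a difference between lines was common to many genes.

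IDO1, the interferon-inducible enzyme of the entry step, was read by 2 probes that gave the same picture. On probe ILMN_3239965 the KLE shCTRL arrays A, B and C measured 7.68, 7.50 and 7.46. The HCT116 arrays measured 6.89, 6.91 and 7.01 and the MCF10A arrays 6.89, 6.88 and 6.96 on this probe. All 15 KLE arrays, which ranged from 7.45 to 7.98 and are all of 1 line, lay above all 6 arrays of the other lines. Here and for the other genes below, the share of all probes whose arrays separate between lines without overlap was not counted. HCT116 was lower than KLE shCTRL by a difference of -0.61 (SE 0.08) and MCF10A by -0.63 (SE 0.07), or 0.656 and 0.645 times the KLE value.

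On the second IDO1 probe, ILMN_1656310, the KLE shCTRL arrays measured 7.48, 7.17 and 7.27. The 3 HCT116 arrays measured 6.74, 6.80 and 6.67 and the 3 MCF10A arrays 6.80, 6.72 and 6.76, all of them under the array median. The KLE arrays again did not overlap the others, with a lowest value of 7.16 over the 5 KLE groups. Against KLE shCTRL the difference was -0.57 (SE 0.10) in HCT116 and -0.55 (SE 0.10) in MCF10A. HCT116 and MCF10A themselves overlapped on both probes, with mean differences of -0.02 and 0.02. In KLE the probes stood between the 68th and the 82nd percentile of their arrays, so IDO1 was above the bulk of probes there without being a bright signal.

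TDO2, the liver enzyme of the same step, was at or near the median everywhere. Probe ILMN_2172091 exceeded the array median in 1 of 21 arrays, with group means from 6.75 to 6.88. Probe ILMN_1716859 measured 6.87, 6.90 and 6.89 in HCT116, 7.0, 6.82 and 6.81 in MCF10A and 6.97, 6.95 and 6.96 in KLE shCTRL. The HCT116 and shCTRL values of that probe did not overlap, but their means were only 0.07 apart. Of 3 liver markers in KLE shCTRL, APOA1 reached 8.26 and the lowest probe of the list 6.80.

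AFMID, the formamidase that releases kynurenine, was highest in HCT116. On probe ILMN_1707551 the HCT116 arrays measured 8.78, 8.91 and 8.48. The MCF10A arrays measured 7.28, 7.37 and 7.62, and the KLE shCTRL arrays 7.26, 6.96 and 7.17. The 3 lines did not overlap on this probe, though the lowest MCF10A array lay just above the highest shCTRL array. HCT116 exceeded KLE shCTRL by 1.60 (SE 0.16), a ratio of 3.03, and MCF10A by 1.30 (SE 0.16), a ratio of 2.47. Means of the deposited intensities were 528.6 in HCT116, 165.8 in MCF10A and 137.3 in KLE shCTRL.

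The other AFMID probe, ILMN_2095653, gave the same order with much smaller steps. It measured 7.21, 7.35 and 7.23 in HCT116, 7.12, 7.12 and 7.15 in MCF10A and 7.05, 7.09 and 7.01 in KLE shCTRL. HCT116 exceeded KLE shCTRL by 0.22 (SE 0.05) on this probe, so the 2 probes of AFMID disagreed in size but not in sign.

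The upstream sequence of AFMID is shown because it and KYNU are the genes with the widest spread between lines. It is RefSeq sequence of build GRCh38.p14, chr17:78187112-78187361 on the + strand, the 250 bases before the annotated gene start, with capitals for matches to TATAAA and CCAAT.
AFMID: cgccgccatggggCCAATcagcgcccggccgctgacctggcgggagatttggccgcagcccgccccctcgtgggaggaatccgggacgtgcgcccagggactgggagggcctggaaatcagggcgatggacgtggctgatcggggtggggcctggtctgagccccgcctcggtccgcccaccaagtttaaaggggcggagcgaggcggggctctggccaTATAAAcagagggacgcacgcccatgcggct
The window holds 70.4% G and C and 24 CpG dinucleotides. The letters TATAAA stand at bases -31 to -26 and CCAAT at -237 to -233, counted back from the gene start, both on the strand of the gene. Over 35116 promoter windows of the same length, read on both strands, TATAAA was present in 10.7% and CCAAT in 32.0%, and the median G and C share was 58.0%. These matches are letters in a window and say nothing of a factor.

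KMO, the mitochondrial hydroxylase, had 1 probe that separated no line from another. ILMN_1730917 measured 6.88, 6.87 and 6.96 in HCT116, 6.87, 6.94 and 6.84 in MCF10A and 6.92, 6.90 and 6.96 in KLE shCTRL. Its 7 group means spanned 0.10, and each group overlapped the next in the order of means.

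KYNU, kynureninase, showed the widest difference of the pathway and did so on both of its probes. Probe ILMN_1746517, annotated to transcript NM_003937, measured 12.80, 12.90 and 12.68 in the MCF10A arrays. The KLE shCTRL arrays measured 6.93, 6.99 and 6.86 and the HCT116 arrays 6.71, 6.77 and 6.64. MCF10A exceeded KLE shCTRL by 5.86 (SE 0.08) and HCT116 by 6.09 in size (HCT116 minus MCF10A -6.09, SE 0.08), and the gap to the next group was 41.4 times the larger SD of the pair. The deposited intensities of this probe were 8942, 7956 and 6806 in MCF10A, against a mean of 109.7 in KLE shCTRL and 94.6 in HCT116, a ratio of 72 between MCF10A and KLE shCTRL.

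Probe ILMN_1737514, annotated to another transcript, NM_001032998, measured 11.93, 11.77 and 11.72 in MCF10A. It measured 6.82, 6.83 and 6.99 in KLE shCTRL and 6.82, 6.93 and 6.88 in HCT116. The difference of MCF10A from KLE shCTRL was 4.93 (SE 0.09), or 30.5-fold, and that of HCT116 from MCF10A was -4.93 (SE 0.07). In MCF10A the probes stood at the 98th and 99th percentile of their arrays. Outside MCF10A no array exceeded 7.03 on this probe or 7.19 on the other, over 18 arrays that include 15 with a hairpin. HCT116 was lower than KLE shCTRL without overlap on ILMN_1746517 (-0.23, SE 0.05) and not on ILMN_1737514 (0.00, SE 0.07). The fold changes are on the scale of log2(value + 16) and, with no background subtraction, understate a ratio against a dim group.

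KYNU is also known from myeloid cells, and CD14 was the leukocyte marker that was high in MCF10A alone. CD14 measured 10.17 and 7.86 on its 2 probes in MCF10A, against 6.75 to 7.04 in every other group. The defining leukocyte gene PTPRC was at 6.75 to 6.86 on its 4 probes in MCF10A, below the array median, as were CD3E (6.81) and ITGAM (6.89). CD68, another myeloid marker, measured 8.21 in MCF10A, 8.32 in HCT116 and 7.24 in KLE shCTRL on probe ILMN_1714861. It measured 8.39, 8.06 and 8.82 on ILMN_2359907 and 6.88, 6.93 and 6.85 on ILMN_2267914. CD68 was thus above the array median on 2 of 3 probes in every line and near it on ILMN_2267914. Its order over the lines depended on the probe. Over the 5 leukocyte genes measured, the median probe was 6.88 in MCF10A, 6.85 in KLE shCTRL and 6.87 in HCT116. The part of these markers in the KYNU level was not tested.

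The upstream sequence of KYNU, chr2:142877414-142877663 on the + strand of GRCh38.p14 in RefSeq, is given for the gene with the widest difference. Capitals mark TATAAA and CCAAT on either strand, the opposite strand reading as TTTATA and ATTGG.
KYNU: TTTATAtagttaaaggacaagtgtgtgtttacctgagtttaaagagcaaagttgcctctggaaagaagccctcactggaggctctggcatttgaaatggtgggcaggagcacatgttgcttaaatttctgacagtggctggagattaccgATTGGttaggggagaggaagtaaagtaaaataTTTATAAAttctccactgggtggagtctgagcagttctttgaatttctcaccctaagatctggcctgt
It holds 42.4% G and C and 1 CpG, against 70.4% and 24 in the AFMID window. TATAAA was found at -66 to -61 on the strand of the gene, overlapping a match on the opposite strand at -68 to -63, and again on the opposite strand at -250 to -245. CCAAT was found on the opposite strand at -100 to -96. Windows were found for 6 of the 7 genes. IDO1 had no window in the table used.

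HAAO, the dioxygenase that acts after KYNU, and QPRT, which feeds NAD synthesis, were near the median in all lines. HAAO probe ILMN_1715125 measured 6.88, 6.84 and 7.02 in HCT116, 6.87, 6.91 and 6.90 in MCF10A and 6.95, 6.98 and 7.11 in KLE shCTRL. Its MCF10A arrays lay below the shCTRL arrays without overlap, by 0.12 (MCF10A minus KLE shCTRL -0.12, SE 0.05), and HCT116 overlapped both. QPRT probe ILMN_1700268 measured 6.78, 6.83 and 6.73 in HCT116, 6.73, 6.77 and 6.83 in MCF10A and 6.96, 6.80 and 6.81 in KLE shCTRL. QPRT exceeded the array median in none of the 6 HCT116 and MCF10A arrays.

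**Figure D2:**
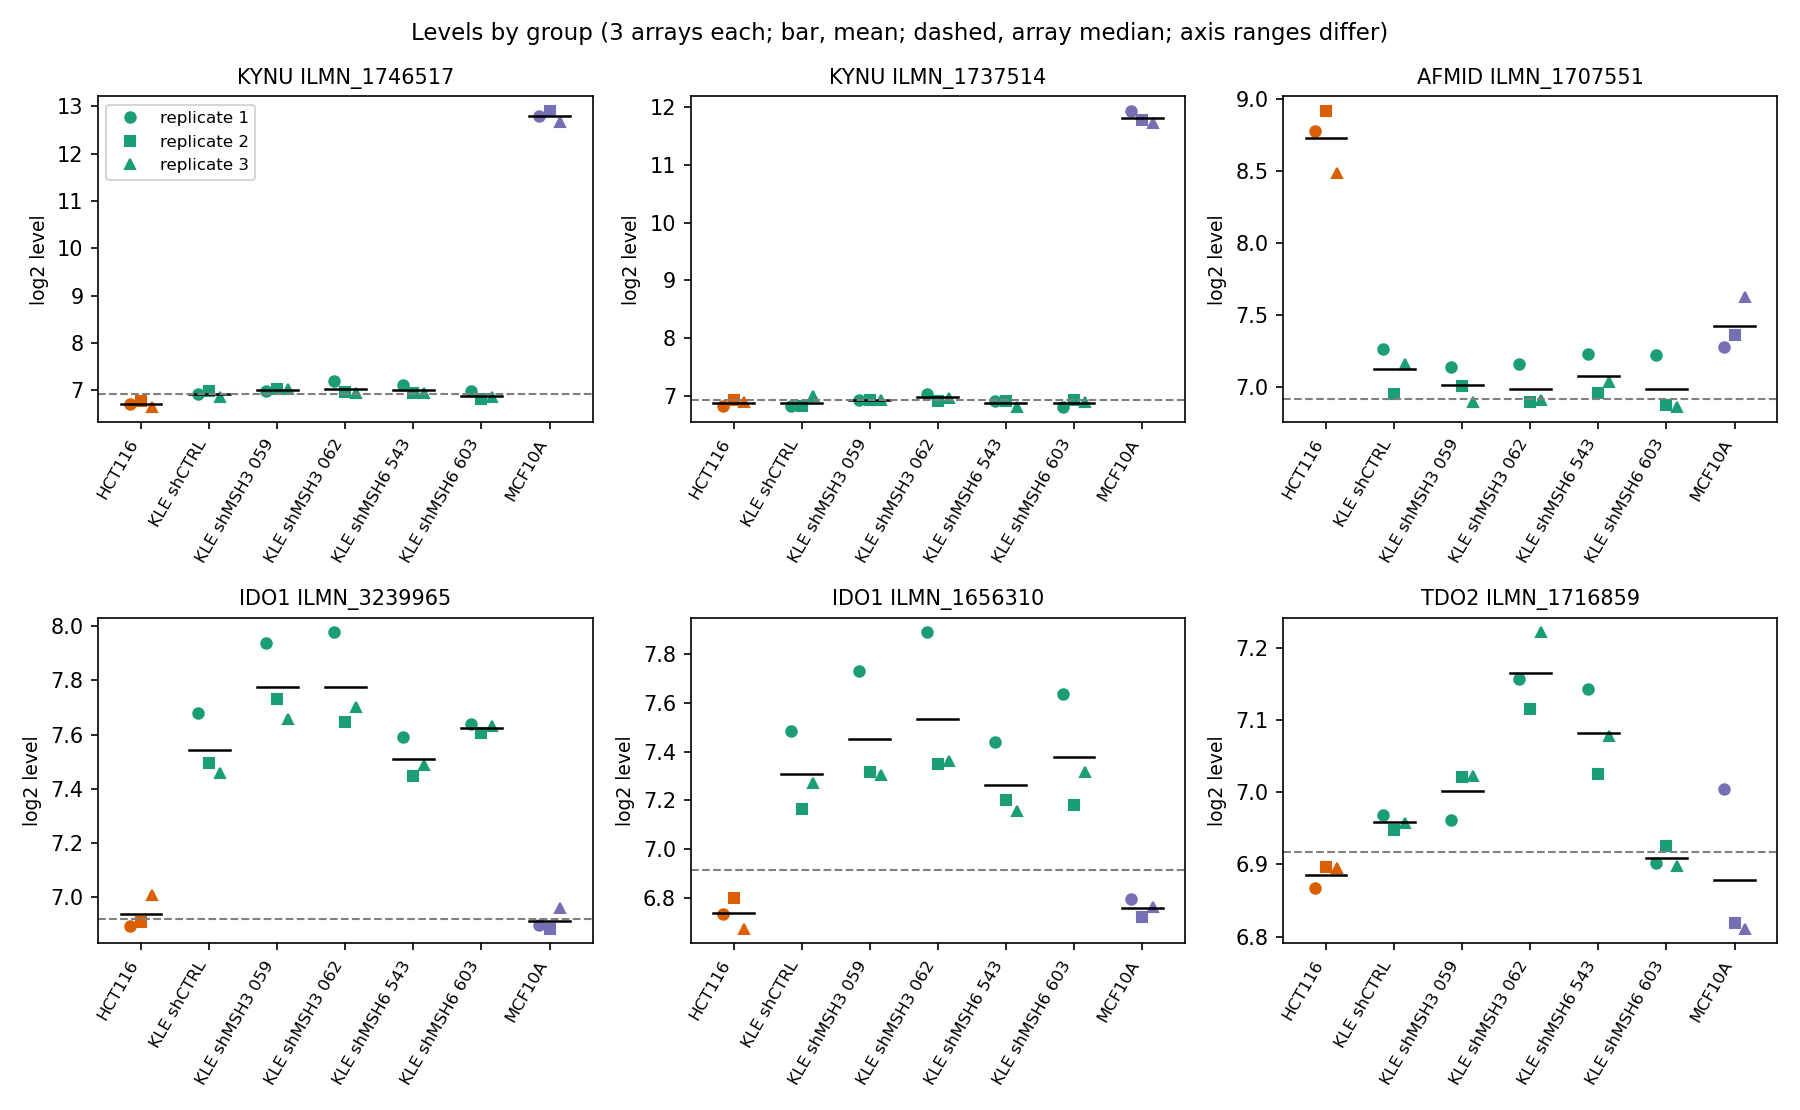
Log2 level of 6 probes of KYNU, AFMID, IDO1 and TDO2 (y axis, with a separate range in each panel) in the 7 groups; symbols are the 3 arrays by replicate number, bars the group means and the dashed line the array median. KYNU is high in the 3 MCF10A arrays on both probes, and in the IDO1 panels replicate 1 (letter A) is the highest array of every KLE group.

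The genes with the most similar pattern over the 7 group means were taken from 4543 probes whose means spanned at least 1. For KYNU they were AOX1 (Pearson r = 0.9998), FYB1 (0.9997) and CCND2 (0.9995), each near the median in 6 groups and at 8.25, 8.25 and 9.34 in MCF10A. In all, 138 probes reached r of 0.99 with KYNU. How many of these were high in MCF10A alone was not counted. For AFMID the most similar genes were GARIN5A (r = 0.998), EXOSC9 (0.9978) and RAC3 (0.9974), among 66 probes that reached r of 0.99 with AFMID. The 7 points share the line differences, and 5 of them are the same line. The means of IDO1 spanned less than 1 (0.80 and 0.86), and no similar genes were sought for it.

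The hairpin groups of KLE ask whether lowering MSH3 or MSH6 moved the pathway. In the fit without the replicate as a block, none of the 10 kynurenine pathway probes that passed the filter on dim probes differed from shCTRL with any hairpin, or between MSH3 and MSH6 hairpins, at a limma adjusted p under 0.05. With the replicate as a block, both IDO1 probes passed between MSH3 and MSH6 hairpins (limma adjusted p = 0.0155 and 0.0468), where 7.61% of all probes passed, and no member passed against shCTRL. The counts, p-values and intervals that follow are from the fit without the block unless the block is named. In both fits the p-values between targets rest on the spread of arrays, not of hairpins. The lowest adjusted p was 0.131, for TDO2 with hairpin 062. Over all probes tested, 0.348% passed with hairpin 059, 0.232% with 062, 0.261% with 543, 2.06% with 603 and 1.63% between the targets. TDO2 probe ILMN_2172091 did not pass the filter, and without the filter none of the 11 probes passed either, with a lowest adjusted p of 0.078.

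At an unadjusted limma p under 0.05, 1 of 10 probes passed with hairpin 059, 3 with 062, 1 with 543, 1 with 603 and 3 between the targets. The shares of all probes were 6.9%, 7.38%, 6.1%, 11.8% and 12.4%. Differences of the 10 probes from shCTRL lay between -0.17 and 0.23 over the 4 hairpins. Their 95% confidence intervals reached from -0.42 to 0.60. With the replicate as a block these intervals reached from -0.31 to 0.37. At an unadjusted limma p under 0.05 the blocked fit gave 2 probes with 059, 3 with 062, 1 with 543 and 2 with 603. Between the targets it gave 4. The shares of all probes in the blocked fit were 12.8%, 14.1%, 11.9%, 20.2% and 21.3%. The 4 hairpin comparisons share the same 3 shCTRL arrays.

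**Figure D3:**
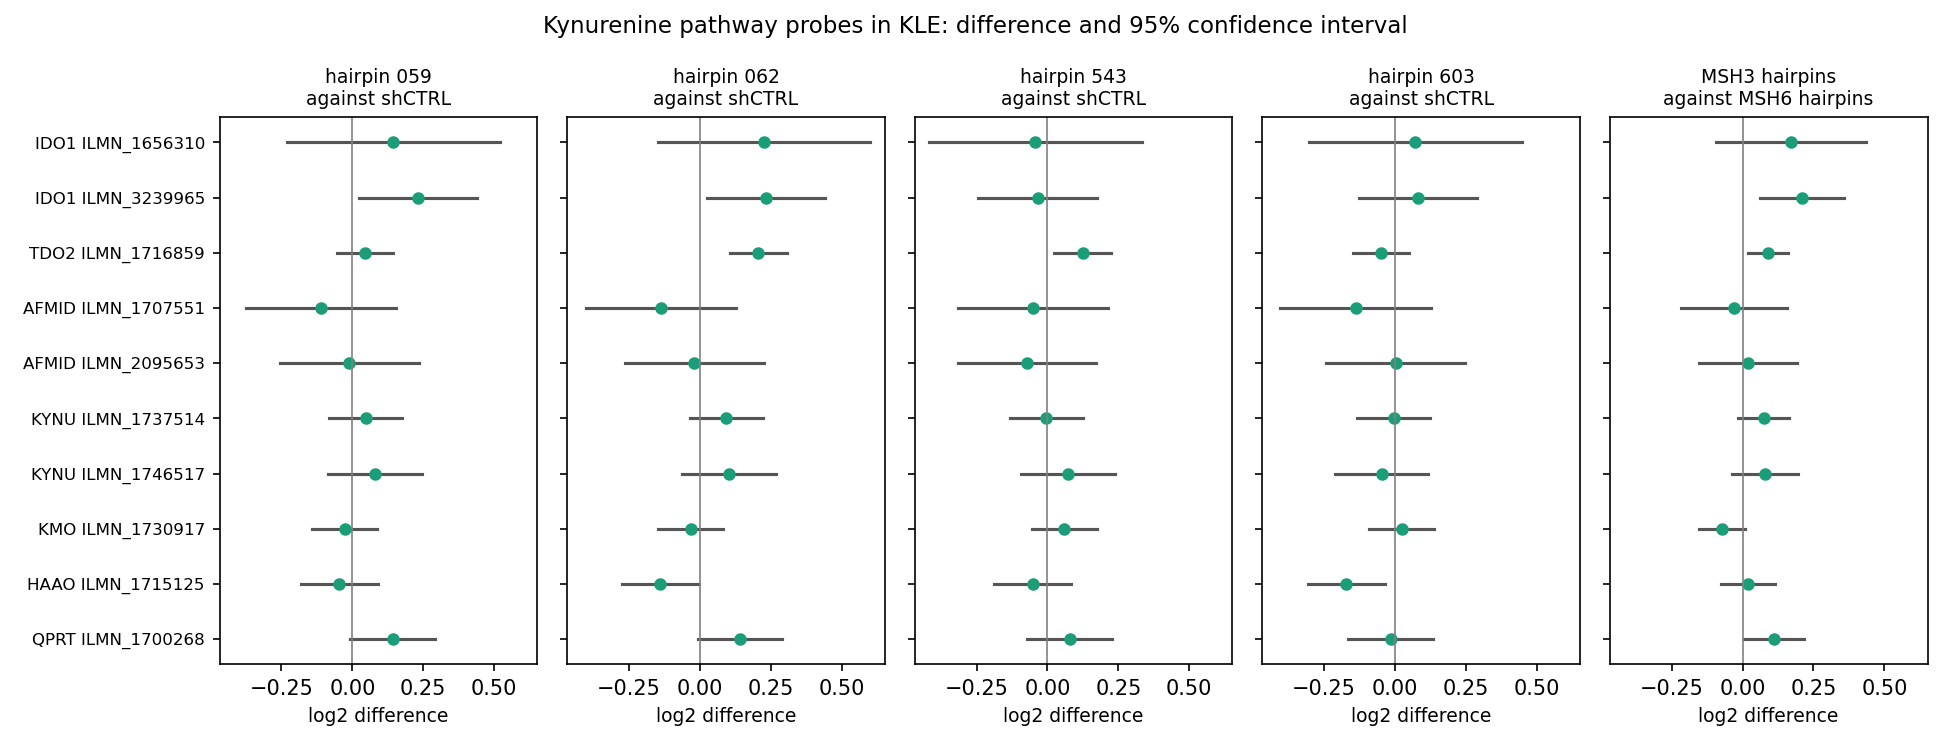
Difference in log2 level (x axis, points) with its 95% confidence interval (bars) for the 10 tested kynurenine pathway probes (rows) in the 5 KLE comparisons, from limma on 15 arrays without the replicate block. All points lie between -0.17 and 0.23, and the intervals of IDO1 and AFMID are the widest.

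IDO1 had the largest differences among the members with the MSH3 hairpins. On ILMN_3239965 the arrays A, B and C measured 7.94, 7.73 and 7.66 with hairpin 059 and 7.98, 7.65 and 7.70 with hairpin 062. They measured 7.59, 7.45 and 7.49 with hairpin 543 and 7.64, 7.61 and 7.63 with hairpin 603. Each MSH3 group lay above both MSH6 groups without overlap on this probe, and overlapped shCTRL. The margin was small, with the lowest 059 and 062 arrays at 7.66 and 7.65 and the highest 603 array at 7.64. How many of all probes separate in this way was not counted. The mean of the MSH3 hairpins exceeded that of the MSH6 hairpins by 0.21 (SE 0.07, limma adjusted p = 0.189). The difference was positive within each of the 3 replicates (0.34, 0.16 and 0.12). This SE comes from the spread of arrays within hairpins and does not measure spread between hairpins of a target. Means were 7.78 with both 059 and 062, 7.51 with 543 and 7.63 with 603. With so few hairpins, a difference between targets cannot be told from one between hairpins.

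On ILMN_1656310 the IDO1 arrays measured 7.73, 7.32 and 7.30 with hairpin 059 and 7.89, 7.35 and 7.36 with hairpin 062. With hairpin 543 they measured 7.44, 7.20 and 7.16 and with hairpin 603 7.64, 7.18 and 7.32, and all 4 groups overlapped. The MSH3 minus MSH6 difference was 0.17 (SE 0.12, limma adjusted p = 0.673), and within replicates 0.27, 0.14 and 0.10. It was 0.08 without the hairpin 062 array A and 0.10 without the hairpin 059 array A. Same-numbered KLE arrays deviated together, so the numbers pair them. With the replicate as a block the same differences had SEs of 0.04 and 0.05, and IDO1 was the only gene of the pathway to pass. In checks chosen after seeing the data, the blocked fit was repeated without each of the 12 hairpin arrays in turn. ILMN_3239965 passed in 12 of 12 (difference 0.18 to 0.23, limma adjusted p 0.0224 to 0.042), and ILMN_1656310 in 1 of 12 (0.14 to 0.20, 0.0479 to 0.114). With the block and median scaling neither probe passed (0.19 and 0.17, limma adjusted p = 0.301 and 0.3), nor on the values as deposited (0.18 and 0.16).

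Against shCTRL, IDO1 probe ILMN_3239965 differed by 0.23 with each MSH3 hairpin (adjusted p = 0.618 for 059 and 0.596 for 062, and 0.112 and 0.105 with the block). It differed by -0.03 with hairpin 543 and 0.08 with 603. On the values as deposited, the 059 differences turned to -0.13 and -0.15 on the 2 IDO1 probes, where the median over all probes was itself -0.27. Relative to that median they were still positive in sign.

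Replicate A gave the highest IDO1 level in 5 of 5 KLE groups on both probes. The mean over the A arrays was 7.64 on ILMN_1656310, against 7.26 over the B and C arrays, and 7.77 against 7.59 on ILMN_3239965. AFMID probe ILMN_1707551 showed the same, with A highest in 5 of 5 groups (7.21 against 6.96). The other AFMID probe, ILMN_2095653, had A highest in 3 of 5 groups, as did QPRT and KYNU probe ILMN_1746517. KMO, TDO2, HAAO and KYNU probe ILMN_1737514 had A highest in at most 2 groups. The labels do not say what the letters stand for, and the part of the replicate in the levels was not tested beyond the block.

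TDO2 probe ILMN_1716859 gave small differences with little spread between arrays. It measured 7.16, 7.12 and 7.22 with hairpin 062 and 7.14, 7.03 and 7.08 with hairpin 543, all above the 3 shCTRL arrays. With hairpin 059 it measured 6.96, 7.02 and 7.02, and with hairpin 603 6.90, 6.92 and 6.90, below the shCTRL arrays. The share of all probes whose arrays separate from shCTRL like this was not counted. The difference from shCTRL was 0.21 with 062 (SE 0.05, limma adjusted p = 0.131), 0.12 with 543 (adjusted p = 0.628), 0.04 with 059 and -0.05 with 603. The 2 hairpins of a target thus gave unlike values, and the second TDO2 probe did not exceed 6.93 in any array.

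KYNU stayed near the median under every hairpin. On ILMN_1746517 the KLE group means ran from 6.88 with hairpin 603 to 7.03 with hairpin 062, and on ILMN_1737514 from 6.87 to 6.97, with overlapping neighbours. Its differences from shCTRL lay between -0.05 and 0.10. AFMID probe ILMN_1707551 gave 7.14, 7.01 and 6.90 with 059, 7.16, 6.90 and 6.91 with 062, 7.23, 6.96 and 7.04 with 543 and 7.23, 6.88 and 6.86 with 603. All 4 AFMID differences were negative on that probe, from -0.14 to -0.05, and none passed.

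Among the later enzymes, HAAO gave 6.87, 6.92 and 6.74 with hairpin 603 and 6.88, 6.89 and 6.85 with 062, all below the 3 shCTRL arrays. The differences were -0.17 (SE 0.06, limma adjusted p = 0.254) and -0.14 (SE 0.06, adjusted p = 0.65). The share of all probes that lie apart from shCTRL in this way was not counted. QPRT differed by 0.14 with each MSH3 hairpin (adjusted p = 0.746 and 0.709), with arrays of 6.88, 7.0 and 7.12 for 059 and 7.05, 7.0 and 6.94 for 062 that overlapped shCTRL. KMO differed from shCTRL by -0.03 to 0.06 over the 4 hairpins.

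Lists of pathway neighbours put these enzymes in context, written from textbook knowledge with earlier results of these data known. Their members were tested with limma between the lines, and the 4 genes with the largest passing difference are named for each comparison. Between these lines many genes passed, so the counts stand against the shares over all probes given above.

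In the side branches of the pathway, 4 of 9 probes tested passed in HCT116 against KLE shCTRL, 3 higher and 1 lower. They belong to 2 of the 6 genes tested, since all 3 higher probes read AADAT. AADAT, an aminotransferase that makes kynurenic acid, was higher by 0.94 (adjusted p = 8.23e-06), and the amino acid oxidase IL4I1 lower (-0.64, adjusted p = 0.00106). MCF10A against KLE shCTRL also gave 3 higher and 1 lower, with IL4I1 at -0.71 and the aminotransferases KYAT1 at 0.68, KYAT3 at 0.59 and GOT2 at 0.57. HCT116 against MCF10A gave 3 higher and 2 lower, from 3 genes, since the 3 higher probes again all read AADAT, with AADAT at 0.78, KYAT3 at -0.65 and KYAT1 at -0.58. The list's median difference was 0.10, 0.21 and -0.16 in the 3 comparisons, against 0.02, 0.01 and 0.02 over all probes. GOT2 and KYAT3 lost their call under other scalings, and GOT2 also without MCF10A replicate 1 or 2.

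In NAD synthesis and salvage, the pathway's end point, NNMT, which methylates nicotinamide, was 19-fold higher in MCF10A than in KLE shCTRL (log2 difference 4.25, adjusted p = 5.09e-10). NAMPT (1.73), NAPRT (1.70) and NMRK1 (0.86), enzymes that make NAD from nicotinamide, nicotinic acid and nicotinamide riboside, were higher there too, among 7 probes higher and 1 lower of 12. HCT116 against KLE shCTRL gave 5 higher and 3 lower, with NAPRT at 2.34, NAMPT at 0.79, NMNAT2 at -0.63 and NNMT at -0.39. HCT116 against MCF10A gave 4 higher and 6 lower, with NNMT at -4.63, NMRK1 at -1.10, NAMPT at -0.95 and NADSYN1 at -0.65. The list's medians were 0.53, 0.10 and -0.27 in that order.

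Among the genes for tryptophan uptake and its other uses, MCF10A exceeded KLE shCTRL in 7 of 12 probes and was lower in 3. The monoamine oxidase MAOA stood 3.20 higher (adjusted p = 9.46e-09), the amino acid transporter subunits SLC7A5 and SLC3A2 2.44 and 1.69 higher, and WARS2 0.88 higher. HCT116 exceeded KLE shCTRL in 5 probes and was lower in 2, with MAOB at 1.31, SLC7A5 at 1.26, SLC3A2 at 0.85 and SLC7A8 at -0.63. HCT116 against MCF10A gave 3 higher and 7 lower, with MAOA at -3.08, MAOB at 1.29, SLC7A5 at -1.17 and WARS2 at -1.02. The list's medians were 0.58, 0.17 and -0.46.

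For the aryl hydrocarbon receptor and its targets, the members did not move one way. CYP1B1 was far higher in KLE, with -4.41 in HCT116 (adjusted p = 1.75e-10) and -3.17 in MCF10A (adjusted p = 5.94e-10) against shCTRL, while NQO1 was lower in KLE (2.03 and 2.47) and TIPARP too (0.98 and 2.02). AHR itself gave -0.63 in HCT116, a call lost under other scalings, and CYP1A2 gave -0.24 in MCF10A, near the median. The counts were 3 higher and 4 lower of 8 for HCT116 and 3 and 2 for MCF10A, with medians of -0.07 and -0.05. HCT116 was below MCF10A in 6 of 8 probes (median -0.43), CYP1B1 by -1.24, TIPARP by -1.04, NQO1 by -0.47 and AHR by -0.43, the last lost in several alternatives.

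The interferon-gamma response genes are shown beside IDO1, itself inducible by interferon-gamma. GBP1 and CXCL10, which interferon-gamma induces, were highest in KLE, as IDO1 was. Against shCTRL, GBP1 gave -2.67 in HCT116 and, on its other probe, -1.85 in MCF10A, and CXCL10 gave -1.51 and -1.49 (adjusted p at most 3.72e-06). The receptor chain IFNGR1 did not follow, with -1.01 in HCT116 and 1.04 in MCF10A, and IFNGR2 gave 0.93 in MCF10A. SOCS3 gave -0.45 in HCT116. The counts were 1 higher and 5 lower of 12 probes for HCT116 and 3 and 4 for MCF10A, with medians of -0.07 and 0.05, and IRF1 passed in neither. HCT116 against MCF10A gave 0 higher and 5 lower, with a median of -0.16. At an unadjusted limma p under 0.05, 6 of the 12 probes passed, against 9123 of 19741 over all probes tested. IFNGR1 gave -2.06, GBP1 -1.02, IFNGR2 -0.95 and JAK1 -0.57 in this comparison.

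**Figure D4:**
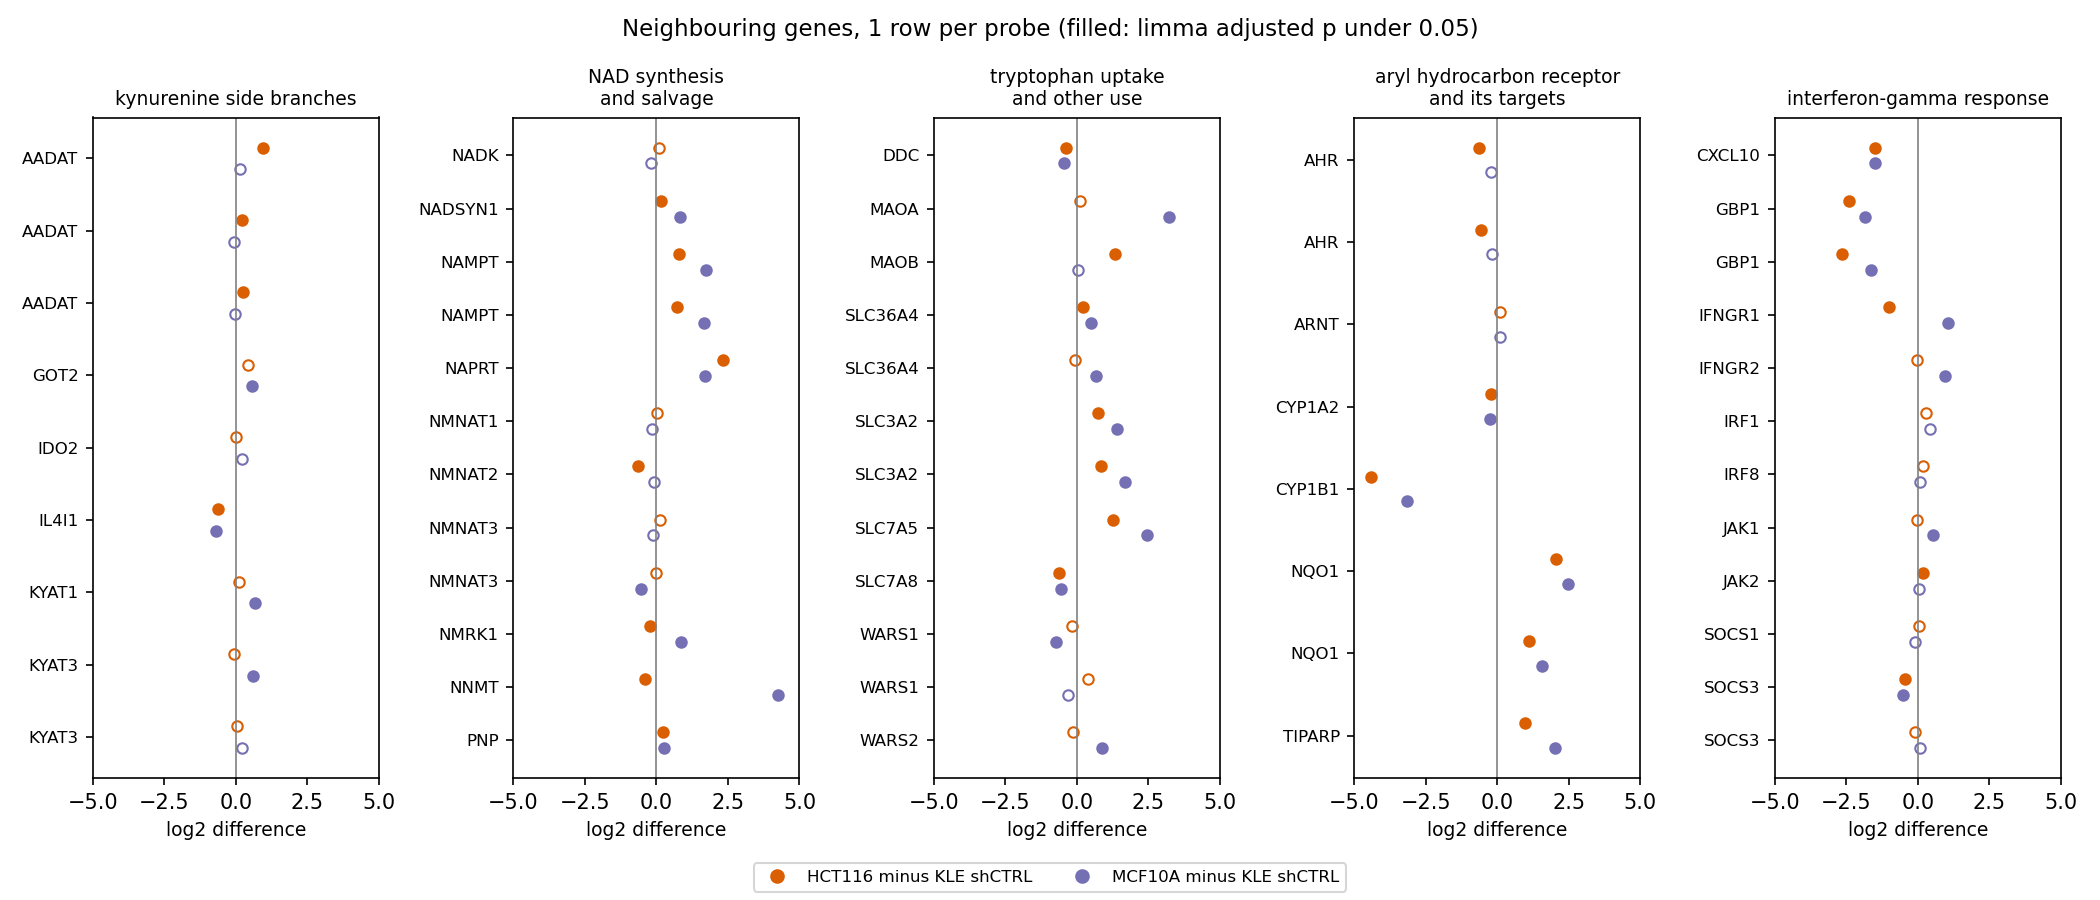
Log2 difference (x axis) of HCT116 and MCF10A from KLE shCTRL for each tested probe of the 5 lists of neighbouring genes, 1 row per probe; filled points passed limma at an adjusted p under 0.05. NNMT and MAOA stand out in MCF10A, and CYP1B1, GBP1 and CXCL10 are lower than in KLE in both lines.

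In the KLE hairpin groups, in the fit without the replicate block, no gene of the 5 lists passed with both hairpins of a target. None passed between the MSH3 and MSH6 hairpins in that fit. With the block, calls over all probes between the targets rose from 338 to 1575. Calls of the lists with the block are not given here. Without the block, single hairpins gave 7 calls in 4 genes, named here after their values were seen. The lists held 9 (side branches), 12 (NAD), 11 (tryptophan), 9 (aryl hydrocarbon receptor) and 12 (interferon-gamma) tested probes. Over all probes, 0.348% passed with 059 and 2.06% with 603, the hairpins of all 7 calls. CYP1B1 was higher with 059 (0.64, limma adjusted p = 0.021) and 603 (0.88, adjusted p = 0.00103), and NNMT lower with the same hairpins (-0.29, adjusted p = 0.0348, and -0.31, adjusted p = 0.00815). With 603, SLC3A2 was higher on both probes (0.96 and 0.56, adjusted p = 0.00186 and 0.0238) and NMNAT2 lower (-0.53, adjusted p = 0.0394). All but NNMT with 603 lost their call under median scaling, and all 7 on the values as deposited. Under each setting the signs stayed. In the fit without the block, the interferon-gamma and side-branch lists had no call with any hairpin.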

How the data were processed

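Total RNA of 21 cell line samples was measured on Illumina expression arrays, 1 array per sample. What was deposited is 1 linear intensity per probe and array. The submitters' processing notes name GenomeStudio, whose version is not stated. From the values, neither background subtraction nor normalization between arrays was seen: the lowest value was 66.3 and array medians ranged from 87.7 to 122.2. Groups were taken from the labels. HCT116 is spelled HCCT116 in the titles, and the letters A, B and C of KLE were taken as replicates 1, 2 and 3.

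The logarithm log2(value + 16) was taken and the arrays were quantile-normalized together. Of 47323 probes, 30113 carry 1 gene, 8 several and 17202 none, per the platform annotation; only the first kind was used. Probes that exceeded the array median in 3 or more arrays entering a fit were tested with limma 3.58.1 (lmFit and eBayes, R 4.3.3), in 1 fit of 9 control-line arrays (19741 probes) and 1 of 15 KLE arrays (20692 probes), two-sided, with Benjamini-Hochberg adjustment over all probes of a fit and a threshold of 0.05. Of the 11 pathway probes, 9 passed the filter in the first fit and 10 in the second. Scripts were tested on simulated data. The members and gene lists were chosen with earlier results of these data known. All pathway probes are named; of each list, genes passing with both hairpins of a target or between targets, and the 4 largest passing differences between lines.

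After subtracting group means, same-numbered KLE arrays correlated across genes in all pairs (median r 0.68, 0.53 and 0.55 for A, B and C, lowest 0.38), so the numbers pair them by the data; those of the control lines did not (0.04, -0.21 and -0.25). Alternatives were normexp background correction with an offset of 50, median scaling, no normalization, log2(value + 1), no filter, the brightest probe of each gene, only the groups compared, the replicate block and leaving out each array. The block combined with a left-out array or another scaling was added after seeing the data. Further lines named in the series design were not analysed here.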

Additional observations from a re-analysis of the deposited data

Results flagged for a closer look

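Each of the 11 pathway probes was screened over every pair of hairpins, always against the same 3 shCTRL arrays. In 3 cases every replicate of a probe moved one way with 1 hairpin and the other way with another. Each replicate was taken relative to the shCTRL array of the same letter. The differences between hairpins were not tested. How often other probes of the arrays met this rule was not counted, so the 3 cases may be no more than background. TDO2 probe ILMN_1716859 was higher with hairpin 062 (0.21) and lower with hairpin 603 (-0.05), a gap of 0.257. The same probe was higher with hairpin 543 (0.12), a gap of 0.174 to hairpin 603, although both target MSH6. KMO probe ILMN_1730917 gave -0.03 with hairpin 062 and 0.02 with hairpin 603, a gap of -0.056. These probes lay near the array median in all groups.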

How the results depend on the processing

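The differences of MCF10A from both other lines in KYNU, of HCT116 from both in AFMID (ILMN_1707551) and of KLE from both in IDO1 kept their direction in all alternatives run. For KYNU probe ILMN_1737514, MCF10A minus KLE shCTRL was 5.72 with normexp, 5.07 with median scaling, 5.115 as deposited and 5.121 with log2(value + 1), and HCT116 minus MCF10A was -5.714, -5.065, -5.049 and -5.118. For ILMN_1746517 normexp and log2(value + 1) gave 6.624 and 6.05, and -7.017 and -6.309. For AFMID probe ILMN_1707551, HCT116 minus KLE shCTRL was 2.059 with normexp and 1.849 as deposited, and HCT116 minus MCF10A was 1.621, 1.56 with median scaling and 1.576 as deposited. For IDO1, normexp gave -0.935 and -0.893 (ILMN_1656310, HCT116 and MCF10A against KLE shCTRL) and -0.918 and -0.959 (ILMN_3239965). The IDO1 differences with hairpin 059 reversed as deposited, to -0.154 (ILMN_1656310) and -0.128 (ILMN_3239965). The replicate block, for paired KLE arrays, raised the pathway probes called between MSH3 and MSH6 hairpins from 0 to 2, both IDO1, and changed no other call of a pathway probe. Without 1 array in turn, the MSH3 minus MSH6 difference of IDO1 lay between 0.158 and 0.241 (ILMN_3239965) and between 0.082 without the 062 replicate 1 (0.101 without the 059 replicate 1) and 0.235 (ILMN_1656310), with no call in the fit without the block. With the block, in alternatives chosen after seeing the data, 1 or 2 pathway probes were called without 1 hairpin array in turn, ILMN_3239965 in 12 of 12 and ILMN_1656310 in 1 of 12; 2 were called with normexp and 0 with median scaling or as deposited.

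Calls over all KLE probes depended on the setting: 14 to 266 for hairpin 059 (72 as reported), 11 to 352 for 062 (48), 8 to 177 for 543 (54), 60 to 1304 for 603 (427) and 9 to 1575 between targets (338). As deposited, the line calls of NMNAT2 (HCT116 against KLE), CYP1A2 and, between HCT116 and MCF10A, SLC7A5, NQO1 and IFNGR2 were also lost. Between lines the values as deposited gave 6066, 5192 and 3747 calls against 10214, 9878 and 7755. The share of calls that were higher fell under median scaling from 34.7% to 0% for 059, 41.7% to 26.3% for 062, 38.9% to 5.6% for 543 and 39.6% to 3.9% for 603, and rose from 52.1% to 85.3% between targets. The median of all probes shifted by -0.27 for 059 and -0.19 for 603 as deposited, and the causes were not tested. With 3 arrays a group and signals near the array median, small changes of TDO2, KMO, HAAO and QPRT are limited by background.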
